A study of Mus musculus with 12 samples.

Results

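The genes described here are the nuclear genes of oxidative phosphorylation, measured in the ileum of mouse pups on postnatal day 14. Members were the protein-coding genes whose symbol begins with Nduf, Uqcr, Atp5, Cox4, Cox5, Cox6, Cox7 or Cox8, together with Sdha, Sdhb, Sdhc and Sdhd, and with a mean of at least 1 CPM (a gene's count scaled to a common library total) over the 12 libraries. This rule took 88 of 35275 genes, or 88 of the 13853 protein-coding genes at that level. By role they were 36 subunits and 7 assembly factors of complex I, 4 subunits of complex II and 8 of complex III. A further 16 were genes of complex IV, 15 of ATP synthase, and 2 others carried the Atp5 prefix. Cox7a2l was counted with complex IV by its symbol. The ileum came from C57BL/6 pups with no allele or transgene named. The dams of the stressed groups had been confined in a ventilated tube from gestational day 7 until day 19, for 2 h daily, and control dams stayed undisturbed in the home cage. From each of 3 stressed and 3 control dams 1 male and 1 female pup were sampled, giving 4 groups of 3 libraries by treatment and sex. All pups and dams otherwise shared strain, diet and age, and stressed always refers to the dam. The design asks whether maternal stress changes the ileal transcriptome of sons and of daughters. Whole ileum was sequenced, so fewer cells of a type and less RNA per cell cannot be told apart.

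Oxidative phosphorylation passes electrons from NADH (complex I) or succinate (complex II) through complex III to complex IV, which reduces oxygen, and ATP synthase uses the proton gradient built on the way to make ATP. Most subunits are encoded in the nucleus, translated in the cytosol and imported, while a small set is encoded by mitochondrial DNA, so the complexes draw on both genomes. In the intestine the enterocytes, which pay for active nutrient uptake, are rich in mitochondria. Several complex IV subunits have tissue isoforms, with separate heart and muscle, testis or oxygen-sensitive versions.

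Promoters of many of these genes are known to carry sites for the transcription factors NRF1, GABPA, YY1 and ESRRA, and 6 are shown as examples of matches to the letters searched. The 100 bases before a RefSeq start of each gene are written 5′ to 3′ on the gene's strand (GRCm38.p6). Capitals mark the match to the searched letters. Where a gene had several starts, the first window that held the match is shown. Starts can differ from the gene model used for the counts: for Atp5g2 that model begins upstream, at chr15:102672352. For Atp5k, Ndufa8 and Atp5h it begins inside the window shown, at chr5:108434448, chr2:36049406 and chr11:115419962. In these genes and in Atp5g2 the capitals lie inside the counted gene. For Ndufa11 and Atp5g3 the model begins directly after the window.
Atp5k: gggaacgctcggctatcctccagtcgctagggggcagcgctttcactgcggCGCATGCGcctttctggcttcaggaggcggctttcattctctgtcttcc
Atp5g2: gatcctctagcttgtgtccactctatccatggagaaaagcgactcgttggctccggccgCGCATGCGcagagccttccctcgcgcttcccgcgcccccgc
Ndufa11: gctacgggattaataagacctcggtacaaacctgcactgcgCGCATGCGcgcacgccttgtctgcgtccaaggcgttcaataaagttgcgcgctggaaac
Ndufa8: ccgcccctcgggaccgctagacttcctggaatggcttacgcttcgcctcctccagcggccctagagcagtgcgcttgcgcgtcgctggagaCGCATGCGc
Atp5h: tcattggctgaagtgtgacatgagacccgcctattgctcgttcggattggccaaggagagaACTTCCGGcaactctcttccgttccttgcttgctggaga
Atp5g3: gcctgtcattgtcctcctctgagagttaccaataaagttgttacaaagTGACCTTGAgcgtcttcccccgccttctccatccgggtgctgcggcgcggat
The windows lie at chr5:108434400-108434499 (minus strand) for Atp5k, chr15:102671048-102671147 (minus) for Atp5g2, chr17:56717662-56717761 (plus) for Ndufa11, chr2:36049339-36049438 (minus) for Ndufa8, chr11:115419920-115420019 (minus) for Atp5h and chr2:73911327-73911426 (minus) for Atp5g3.

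Of the 88 members 71 were matched by symbol to the RefSeq promoter table, whose windows run from 250 bases before to 50 bases after a start. The letters CGCATGCG, part of the NRF1 site and their own reverse complement, stood in the windows of 11 of the 71 (15.5%) and of 2.07% of all 27025 genes in the table. The 11 were Atp5g2, Atp5j, Atp5k, Atp5l, Cox6a1, Ndufa11, Ndufa8, Ndufaf4, Ndufaf5, Uqcr11 and Uqcrc1. CCGGAAGT, searched for GABPA on both strands, stood in 5 of 71 (7.04%: Atp5h, Cox8a, Ndufs3, Uqcr11 and Uqcrh) against 4.31% of all genes. AAGATGGC, searched for YY1 on both strands, stood in 9 of 71 (12.7%) against 3.19%, and in 8 of the 9 its first base lay 23 to 39 bases after the start. TCAAGGTCA, searched for ESRRA on both strands, stood in Atp5g3 and Sdhd, 2.82% of the members against 0.466% of all genes. No letters of these motifs overlapped in a member that held more than 1 of them. All 27025 genes were taken whatever their type or level, unlike the members, so these shares do not compare like sets. These are matches of letters, and no binding was measured.

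Among members, levels per gene length were compared as FPKM (read counts per kilobase of gene length, scaled to the library total). The mean over 12 libraries ran from 0.770 FPKM (Ndufb2) to 665 FPKM (Atp5b), with a median of 87.0 FPKM against 8.02 FPKM over the 13853 protein-coding genes. Within ATP synthase the catalytic part led: Atp5b, the beta subunit, stood at 665 ± 118 FPKM and Atp5a1, the alpha subunit, at 349 ± 48.7 FPKM (SD, n = 12). In complex IV, Cox6a1 reached 508 ± 124 FPKM and Cox5b 350 ± 41.7 FPKM. Complex III genes lay close together, from Uqcrfs1, the Rieske iron-sulfur protein, at 90.3 FPKM to Uqcrh, the hinge protein, at 209 FPKM. Complex II, which is also an enzyme of the tricarboxylic acid cycle, ran from Sdhc, a membrane anchor, at 44.0 FPKM to Sdha, the flavoprotein, at 141 FPKM, with Sdhd at 135 and Sdhb at 106 FPKM. Complex I subunits had a median of 71.5 FPKM, led by Ndufb9 (167 FPKM) and Ndufa6 (159 FPKM), both accessory subunits. The 7 complex I assembly factors, which help build the complex without staying in it, were lower than most subunits, from Ndufaf4 at 3.97 FPKM to Ndufaf2 at 21.0 FPKM. The gene length is the authors' and is long for some members, which lowers their FPKM: 4371 bases for Ndufb2 and 4715 bases for Atp5g1 (28.3 FPKM) against a median of 992 bases over the members. Ndufb2 was also low before division by length. Its mean was 3.37 CPM, and the next lowest complex I subunit, Ndufb6, had 25.3 CPM (unscaled).

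**Figure D1:**
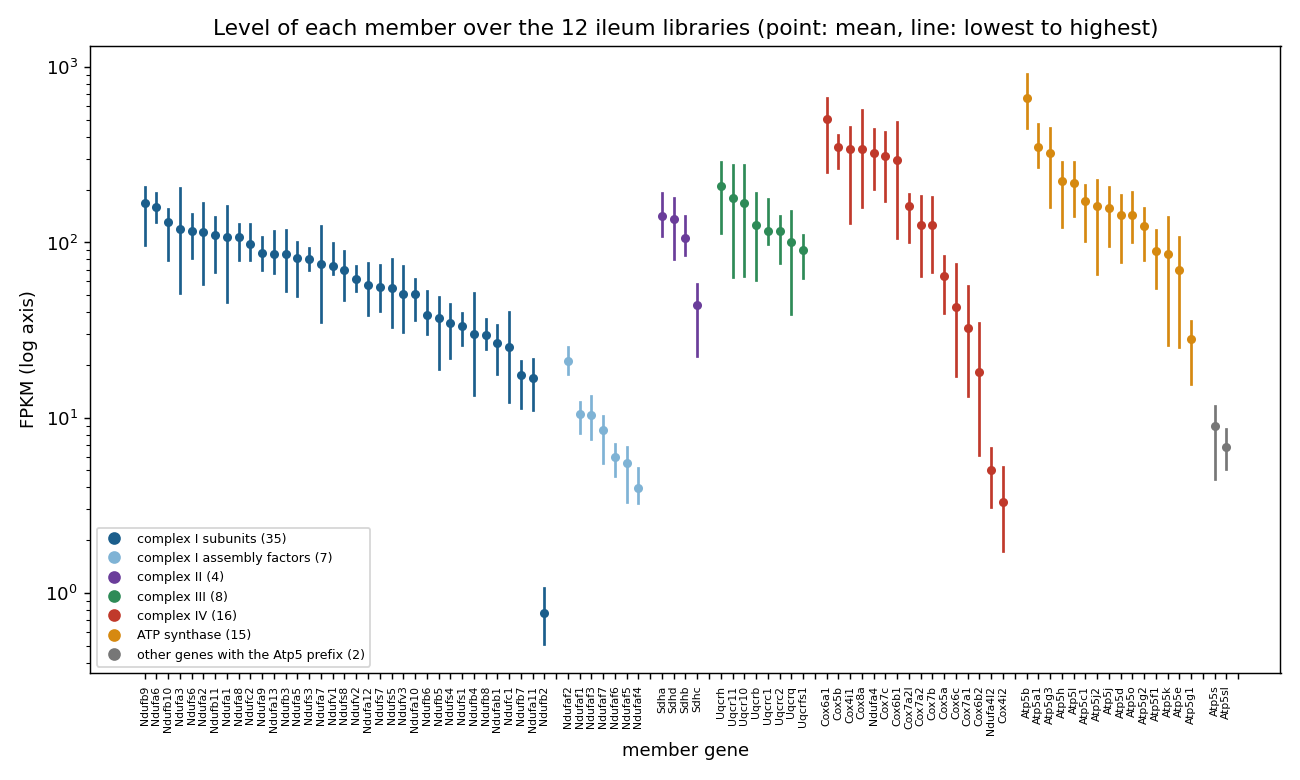
Mean FPKM of the members, 1 left out (points, log axis) with the lowest and highest of the 12 libraries (lines), grouped and coloured by role. ATP synthase and complex IV hold the highest means, up to 665 FPKM for Atp5b, and the assembly factors stay at or below 21.0 FPKM.

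The tissue isoforms of complex IV were unequal in level. Cox4i1, the general form of the subunit, stood at 341 ± 97.2 FPKM and Cox4i2, its oxygen-sensitive form, at 3.28 ± 0.956 FPKM (SD, n = 12). Cox4i2 made up 0.703% to 1.37% of the pair over the libraries, with the highest share in control male 1. Ndufa4l2, an oxygen-sensitive relative of the complex IV subunit Ndufa4, took 1.19% to 2.21% of its pair, and control male 1 was again the highest. Cox6b2, known from testis, took 2.91% to 7.03% of Cox6b1 plus Cox6b2, while the testis markers Prm1 and Tnp1 summed to at most 0.151 CPM in any library. Cox7a1, the heart and muscle form, took 14.9% to 28.4% of Cox7a1 plus Cox7a2. Its highest shares were 28.4% in control male 3 and 25.2% in control female 3, both from control dam 3, and its lowest was in control male 1, the library with the highest summed smooth muscle markers (10445 CPM against 3643 to 7095 CPM elsewhere). On the FPKM scale the 3 genes of the ATP synthase c subunit, which make the same mature protein, kept their order in every library. Atp5g3 gave 62.7% to 72.1% of their summed FPKM, Atp5g2 21.9% to 31.2% and Atp5g1 5.51% to 6.51%. The order of Atp5g1 and Atp5g2 depends on the gene length used, 4715 and 753 bases. Before division by length Atp5g1 was the higher, at a mean of 133 against 93.2 CPM (unscaled).

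In all, 4 genes that carry the names missed 1 CPM. Cox8b and Cox6a2, heart and muscle forms, had means of 0.827 and 0.165 CPM. Cox8b was highest in stressed male 2, at 2.26 CPM, where the fat markers Adipoq, Plin1 and Cfd together also reached their highest sum of 85.6 CPM. Of the 6 striated muscle markers Acta1, Actc1 and Mb were at their highest there too, at 2.31, 3.73 and 0.295 CPM. Ckm, Tnnt3 and Myh1 were not, with Ckm at 7.91 CPM there and 11.5 CPM in control male 1. The 6 markers of that list summed to 14.7 CPM in stressed male 2, within the 8.65 to 16.03 CPM of all libraries. Of the brown fat markers, Cidea ran from 0.742 to 2.28 CPM over the libraries and Ucp1 was at 0 in each. The part of these tissues in the Cox8b value was not tested. Cox7b2 and Cox8c had 0 of 243516156 counts, which allows up to 0.0123 CPM (3 counts, counting error only). Just inside the limit of 1 CPM were Cox4i2 at 2.41 and Ndufb2 at 3.37 CPM. All 88 members passed the filter on low counts, and the lowest count of any member in any library was 21. Reads of 22 members could be shared with overlapping genes, 6 of them on the same strand (Ndufb2, Atp5o, Ndufb8, Ndufc2, Cox4i1 and Ndufa13), and the sources used here do not give the strand setting of the counting. Values of these members are uncertain to that extent.

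Library totals ran from 16423523 to 22975526 counts. The noncoding gene Yam1 took 4.13% of the counts in stressed male 3, 1.39% in stressed male 1 and 1.00% in control male 1. In the other 9 libraries it took 0.171% to 0.50%. Both pups of control dam 3 carried markers of the upper small intestine: the 5 markers (Fabp1, Gata4, Lct, Cyp3a11 and Onecut2) summed to 6815 CPM in the male and 2552 CPM in the female pup of that dam. Most of each sum was Lct, at 5240 and 2318 CPM, and Onecut2 was at 19.4 CPM in the male but at 0.609 CPM in the female. The 5 ileal markers had a median deviation (log2 CPM minus the gene's mean over libraries) of -1.78 in the male, with Fabp6 at 0.716 CPM, and of 0.36 in the female. Of the 5 epithelial markers, Epcam, Cdh1, Vil1 and Krt8 were at 376 CPM or more in every library, while Krt20 ran from 26.3 CPM in control male 1 to 545 CPM in control male 3. Results are given with and without these libraries.

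The members varied together from library to library, and most of that variation ran within the groups. They took 0.887%, 1.17% and 1.27% of all counts in the 3 control males, 0.873%, 1.29% and 0.730% in the stressed males, 1.21%, 1.01% and 1.28% in the control females and 1.37%, 1.21% and 1.12% in the stressed females. The 3 lowest shares belonged to the 3 Yam1-rich males. On the log2 scale each member was set against its own mean over the 12 libraries, with CPM, unless said otherwise, scaled by TMM, edgeR's correction for library composition. The median deviation of the members was -0.26, 0.09 and 0.26 in control males 1 to 3, -0.36, 0.20 and -0.59 in stressed males 1 to 3, 0.10, -0.23 and 0.34 in control females 1 to 3, and 0.30, 0.11 and 0.00 in stressed females 1 to 3. In stressed male 3, 82 of 88 members lay below their mean and 64 of 88 were at their lowest of all libraries. In stressed male 2, by contrast, 80 of 88 lay above their mean. The highest library was stressed female 1 for 28 members, control male 3 for 27 and control female 3 for 26.

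**Figure D2:**
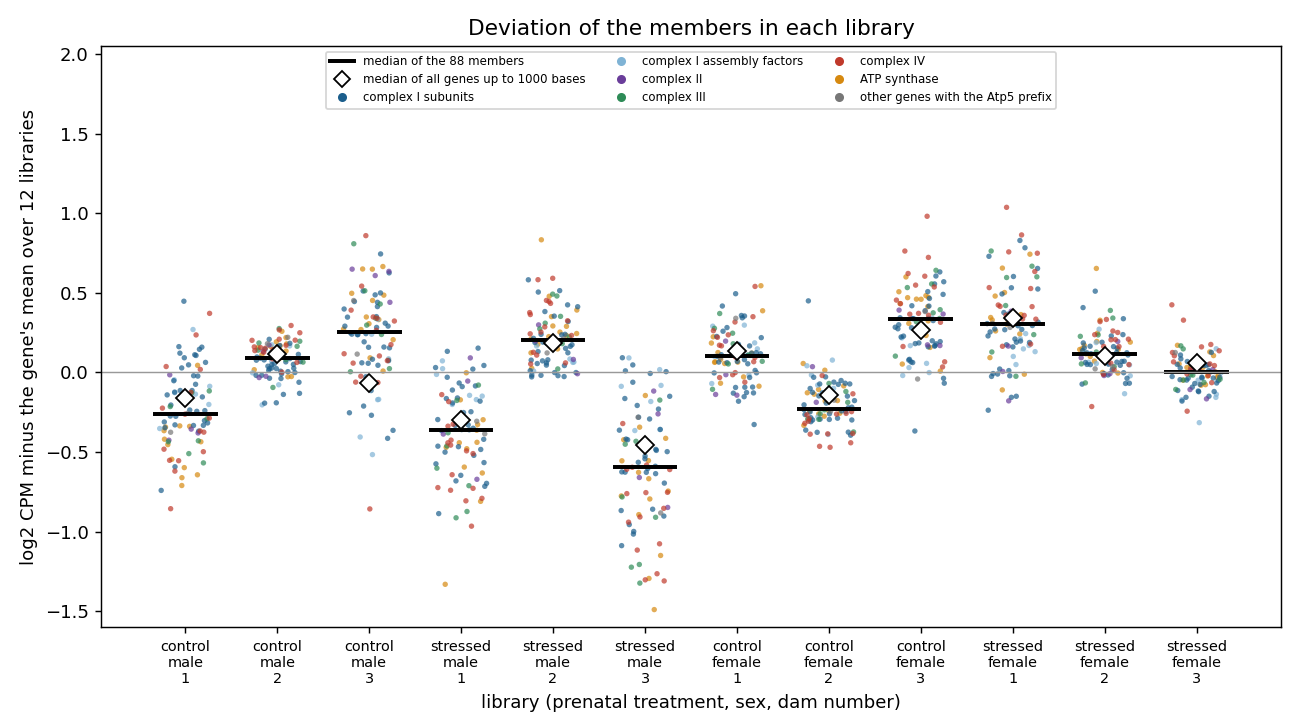
Deviation of each of the 88 members from its own mean (log2 CPM) in each library, coloured by role, with the median of the members (bar) and the median of all 929 genes of up to 1000 bases (diamond). The members sit lowest in stressed male 3 (median -0.59), stressed male 1 (-0.36) and control male 1 (-0.26), and short genes of any function lean the same way in all libraries but control male 3.

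The complexes did not take equal parts in this variation. All 16 complex IV genes were at their lowest in stressed male 3, where their median deviation was -0.81, as were 12 of 15 ATP synthase genes (-0.67), 26 of 36 complex I subunits (-0.49), 5 of 8 complex III genes (-0.85) and 3 of 4 complex II genes (-0.46). Of the 7 assembly factors 1 was at its lowest there, with a median of -0.09. Gene length differed by role too. Its median was 699.5 bases in complex IV, 955 in ATP synthase, 1014.5 in complex I subunits and 1082 in complex III. It was 1200 bases in the assembly factors and 2093.5 in complex II. The part of length in the order of the roles was not tested. Control male 3 showed another order: all 4 complex II genes were at their highest there, with a median deviation of 0.62, and 18 genes of the tricarboxylic acid cycle and pyruvate dehydrogenase had a median of 0.45.

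Sdha stood at 316, 396 and 635 CPM in control males 1 to 3 and at 432, 403 and 373 CPM in stressed males. In females it stood at 367, 415 and 457 CPM with control dams and at 358, 403 and 376 CPM with stressed dams. Control male 3 lay far above the other 11 libraries, and control male 1 was the lowest. Atp5b stood at 861, 1271 and 1992 CPM in control males and at 1115, 1368 and 990.0 CPM in stressed males. In females it stood at 1232, 1268 and 1401 CPM with control dams and at 1247, 1332 and 1290.0 CPM with stressed dams. Here too control male 3 was the highest and control male 1 the lowest, with stressed males between them. Both genes were high in the library that carried upper-intestinal markers, and the part of gut position in this was not tested.

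The spread of a member over the 12 libraries, as the SD of log2 CPM, had a median of 0.30 over the 88 and 0.27 over all protein-coding genes of at least 1 CPM. Atp5k, the e subunit at the dimer interface of ATP synthase, spread most (SD 0.78), followed by Cox6b2 (0.74), Cox7a1 (0.68), Cox6c (0.63) and Ndufa3 (0.63). The smallest spreads belonged to the assembly factors Ndufaf2 (0.13) and Ndufaf1 (0.14) and to the core subunit Ndufs3 (0.15). By role the median SD was 0.42 in complex IV, 0.40 in complex III, 0.35 in ATP synthase, 0.30 in complex II, 0.27 in complex I subunits and 0.19 in its assembly factors. Atp5k stood at 26.1, 48.9 and 43.1 CPM in control males and at 17.0, 76.3 and 15.2 CPM in stressed males. In females it stood at 62.5, 40.4 and 59.3 CPM with control dams and at 71.7, 67.4 and 48.2 CPM with stressed dams. The stressed males hold both its highest and its lowest value. The members with a match to the NRF1 letters included both wide and narrow spreads: Atp5k is one, and so is the assembly factor Ndufaf4, with an SD of 0.19.

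Gene length moved with this variation. The 44 members of up to 1000 bases had a median SD of 0.36 and the 44 longer ones 0.27. Over all genes of at least 1 CPM the corresponding values were 0.40 for 929 short genes and 0.27 for 13592 longer ones. The short genes had median deviations of -0.16, -0.30 and -0.46 in control male 1, stressed male 1 and stressed male 3, and 0.34 in stressed female 1. The median over all genes stayed between -0.01 and 0.02 in every library. In control male 3 short genes stood at -0.06 while the members stood at 0.26. By the authors' gene length, which is long for some members, those over 1000 bases had a median of -0.42 in stressed male 3 and 0.35 in control male 3. In stressed male 3 they included Cox6c (3038 bases) at -1.12 and Sdha (2900 bases) at -0.12. The part of length in the members' variation was not tested beyond the correction given below.

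**Figure D3:**
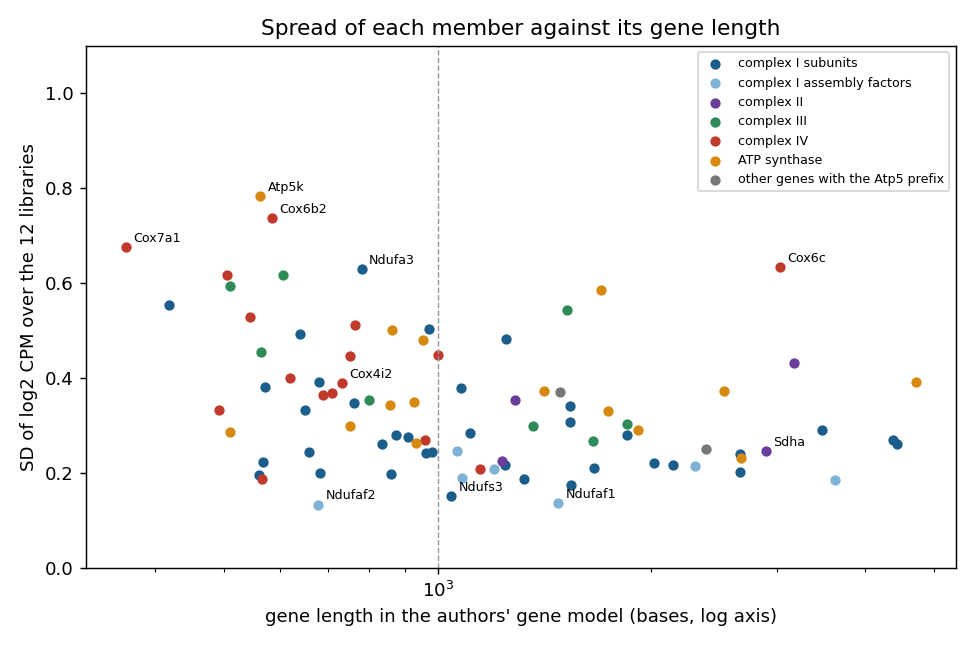
SD of log2 CPM over the 12 libraries (y axis) against the gene length in the authors' model (x axis, log scale) for each member, coloured by role, with the dashed line at 1000 bases. The widest spreads (Atp5k 0.78, Cox6b2 0.74, Cox7a1 0.68) lie among short genes and the narrowest (Ndufaf2 0.13, Ndufaf1 0.14, Ndufs3 0.15) lie on both sides of the line.

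In stressed against control males most members had lower values, and none passed the threshold. The log2 fold change was negative for 82 of 88 members, with a median of -0.26 against 0.01 over all 16102 genes tested. By edgeR's quasi-likelihood test with Benjamini-Hochberg adjustment 0 members and 0 genes passed an adjusted p of 0.05 (0% of those tested). An unadjusted p under 0.05 was reached by 1 member and by 1028 genes (6.38%). DESeq2 and limma-voom likewise called 0 members, with 2 and 1 at an unadjusted p under 0.05. By role the median was -0.22 for complex I subunits (34 of 36 lower), -0.01 for the assembly factors (4 of 7 lower), -0.36 for complex II (4 of 4), -0.32 for complex III (8 of 8), -0.31 for complex IV (15 of 16) and -0.28 for ATP synthase (15 of 15). The complex II value turned on control male 3, without which it was -0.10, with 3 of 4 lower and Sdha at 0.17. The assembly factors lay near the median of all genes while the median of each complex lay below it.

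Ndufb7 (chr8:83566671-83571626, ENSMUSG00000033938), an accessory subunit of complex I, had the smallest p of the members. It had 82.6, 78.6 and 90.2 CPM in control males and 54.7, 80.7 and 52.5 CPM in stressed males. Stressed males 1 and 3 lay below every control male, while stressed male 2 lay among them. Its log2 fold change was -0.42 ± 0.17 (SE), with an unadjusted p of 0.0277 and an adjusted p of 0.752 by edgeR's quasi-likelihood test. Atp5o (ENSMUSG00000022956), the OSCP subunit that joins the ATP synthase head to its stalk, followed at -0.41 ± 0.20 (adjusted p = 0.752, edgeR). It had 136, 129 and 206 CPM in control males and 107, 149 and 98.0 CPM in stressed males, so that the groups overlapped. Ndufa5, Ndufb10 and Ndufa6, further accessory subunits of complex I, had log2 fold changes of -0.38, -0.34 and -0.28.

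Ndufa6 (chr15:82350139-82354291) was the one member whose male groups did not overlap downward: 99.0, 89.0 and 108 CPM in control males against 78.1, 88.4 and 76.6 CPM in stressed males. That is 1 of 88 members (1.14%), where 2.95% of all genes tested were lower without overlap, and 0 members were higher without overlap, where 2.72% of all genes were. The members' shares were thus below those of all genes in both directions. Cox4i1 (chr8:120668222-120674207) had the lowest log2 fold change of the members, -0.50 ± 0.33 (SE), with 227, 286 and 298 CPM in control males and 150.0, 319 and 103 CPM in stressed males. Its stressed males held both the highest and the lowest of these 6 values. Uqcrq, a small complex III subunit, followed at -0.50 ± 0.36, with 132, 164 and 177 CPM in control males and 88, 184 and 61.7 CPM in stressed males. Ndufa4l2 had 5.61, 5.29 and 4.55 CPM in control males and 3.78, 4.96 and 3.11 CPM in stressed males, a log2 fold change of -0.38 ± 0.21. Cox4i2, the other oxygen-sensitive form, had 3.02, 2.42 and 2.21 CPM against 1.81, 2.41 and 1.33 CPM. In both, stressed male 2 lay within the range of the controls.

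The male median turned on single libraries. Without stressed male 2 it was -0.56, and 53 of 88 members (against 20.7% of all genes) had an unadjusted p under 0.05, with 0 members past the adjusted threshold. Without stressed male 3 it was -0.11, and without control male 3 it was -0.14. Without the 3 Yam1-rich males it was 0.02, with 37 of 88 members lower, and this leaves 1 stressed male and 2 control males. After a correction of each library for its dependence on the authors' gene length, the median was -0.17 against -0.02 over all genes, with 76 of 88 lower. The part of the Yam1-rich libraries in the male values cannot be told apart from stress, since 2 of the 3 are stressed males.

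**Figure D4:**
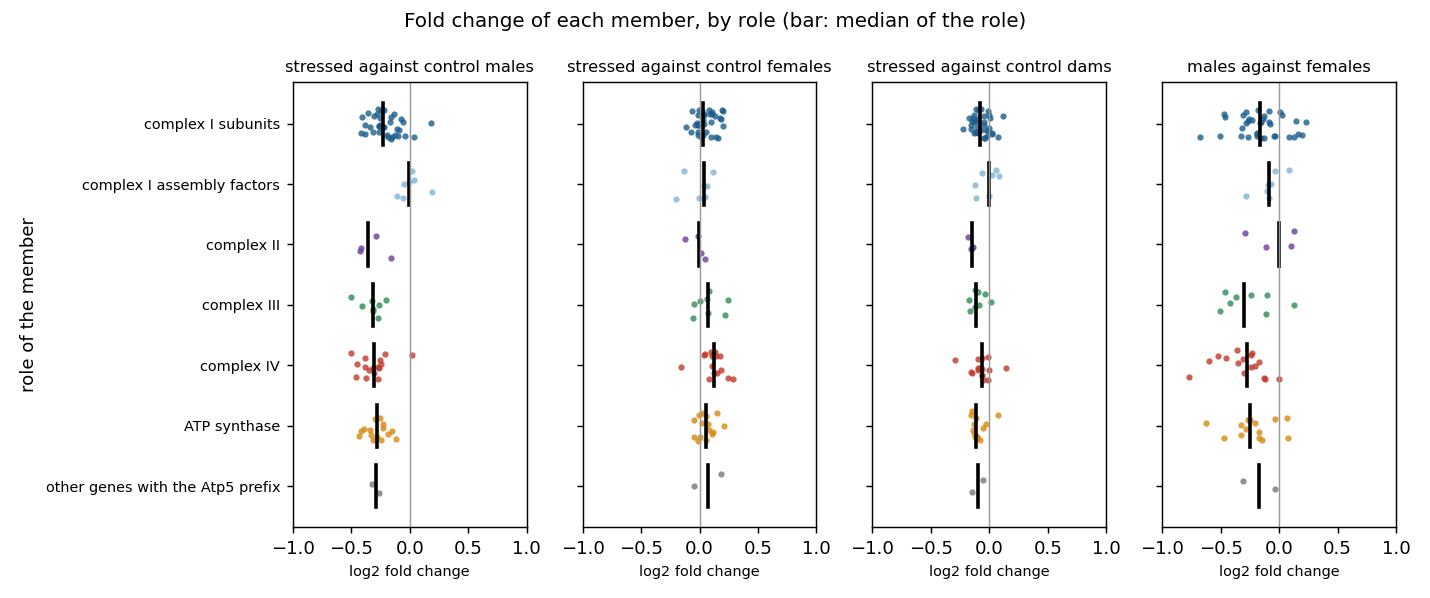
Log2 fold change of each member (points) and the median of its role (bars) in stressed against control males, females and dams, and in males against females. In males the medians of all complexes lie below 0, between -0.36 and -0.22, with the assembly factors at -0.01, and in females they lie between 0.00 and 0.12.

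In stressed against control females the members stood near 0. The median log2 fold change was 0.05 against 0.00 over all genes, with 25 of 88 members lower and 63 higher. By edgeR 0 members and 0 genes passed the threshold (0%), 0 members and 48 genes (0.298%) had an unadjusted p under 0.05, and DESeq2 and limma-voom called 0 members with 0 at that unadjusted p. Complex IV had the highest median, 0.12, with 15 of 16 members higher. Ndufa13 (GRIM-19, a complex I subunit) was the one member higher without overlap: 95.8, 89.6 and 104 CPM in control females against 107, 112 and 103.8 CPM in stressed females, where the highest control value was 103.7 CPM. That is 1 of 88 (1.14%), where 3.07% of all genes were higher and 2.49% were lower without overlap, and 0 members were lower. Ndufa4l2 had the smallest p: 4.65, 4.29 and 4.87 CPM in control females, 6.12, 4.71 and 5.99 CPM in stressed females and a log2 fold change of 0.28 ± 0.21 (adjusted p = 1, edgeR). Stressed females 1 and 3 lay above all control females. The assembly factors Ndufaf4 and Ndufaf2 had log2 fold changes of -0.20 and -0.13. The female median was -0.08 without control female 2 and 0.20 without control female 3.

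The difference between the sexes' stress effects, male minus female, was negative for 84 of 88 members, with a median of -0.30 against 0.00 over all genes. By edgeR 0 members and 0 genes passed (0%), while 1 member and 346 genes (2.15%) had an unadjusted p under 0.05. DESeq2 and limma-voom called 0 members, with 2 each at that unadjusted p. The 1 member was Ndufa4l2, at -0.67 ± 0.29 (SE, unadjusted p = 0.0443, adjusted p = 0.999 by edgeR's interaction term), followed by Ndufb7 at -0.51 ± 0.24. Stressed males 1 and 3 had the lowest values of Ndufa4l2 of all 12 libraries and stressed females 1 and 3 the highest. Without the 3 Yam1-rich males the median of the difference was -0.02, with 47 of 88 members lower. With the correction for gene length it was -0.19, and it ran from -0.57 without stressed male 2 to -0.15 without stressed male 3.

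Over dams, with the counts of littermates summed, the median was -0.10 against 0.00 over all 16749 genes, and 77 of 88 members were lower in the offspring of stressed dams. By edgeR 0 members and 0 genes passed (0%), 0 members and 228 genes (1.36%) had an unadjusted p under 0.05, and DESeq2 and limma-voom called 0 members with 0 at that unadjusted p. Ndufs4, an accessory complex I subunit, had the smallest p. It had 57.3, 48.4 and 63.0 CPM in control dams 1 to 3 and 52.5, 56.6 and 41.6 CPM in stressed dams 1 to 3 (unscaled CPM of summed littermates). Only stressed dam 3 lay below all control dams. Its log2 fold change was -0.22 ± 0.16 (SE), with an adjusted p of 1.00 by edgeR. Without control dam 3, the dam whose pups carried upper-intestinal markers, the median was 0.03 with 24 of 88 lower. Without stressed dam 3 it was 0.00, and without the 3 Yam1-rich males 0.05.

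Males against females, over both treatments, gave lower male values for 74 of 88 members, with a median of -0.19 against 0.00 over all genes. By edgeR 0 members passed, where 8 of 16102 genes did (0.0497%), and 3 members and 1929 genes (12%) had an unadjusted p under 0.05. DESeq2 and limma-voom called 0 members with 4 and 6 at that unadjusted p. The count at that unadjusted p depended on the setting: it was 11 of 88 members with the litter as block (9.84% of all genes), 13 with the correction for gene length (10.8%) and 15 with limma on log2(FPKM + 1) (11.7%). The 3 were Ndufaf7, Ndufa3 and Cox6b2. Ndufaf7, an arginine methyltransferase that acts in complex I assembly, ran from 14.6 over a median of 17.7 to 21.1 CPM in the 6 males and from 19.1 over 21.9 to 22.4 CPM in the 6 females, with a log2 fold change of -0.29 ± 0.11 (SE, adjusted p = 0.411, edgeR). Ndufa3, a small complex I subunit, ran from 42.1 over 57.4 to 128 CPM in males and from 78.0 over 120 to 151 CPM in females (-0.67 ± 0.28, adjusted p = 0.411, edgeR). Cox6b2 ran from 3.75 over 6.04 to 14.2 CPM in males and from 7.17 over 13.2 to 19.4 CPM in females (-0.77 ± 0.34). In all 3 the sexes overlapped, and for Ndufa3 and Cox6b2 the highest male was stressed male 2. By role, all 16 complex IV members were lower in males (median -0.27), while complex II had 2 lower and 2 higher (0.00). Ndufv1, the subunit that takes electrons from NADH, leaned toward males, at 0.23 ± 0.12.

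This difference also rested on few libraries. Without stressed male 2, 16 of 88 members (18.2%) passed the threshold and all 16 were lower in males, while 1384 of 16389 genes (8.44%) passed. Among the 16 were Atp5k (log2 fold change -1.19, adjusted p = 0.0346 by edgeR), Ndufa3 (-1.01, adjusted p = 0.0346) and Cox6b2 (-1.14, adjusted p = 0.0390), which with all libraries had -0.62, -0.67 and -0.77. Of the 5 males that this leaves, 3 are rich in Yam1. Without those 3 males instead, the median turned to 0.07, with 65 of 88 members higher in males and 0 past the threshold. With the correction for gene length it was -0.03, with 47 lower and 41 higher. Short genes of any function were also lower in males: the median of the 929 was -0.23, with 721 lower.

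**Figure D5:**
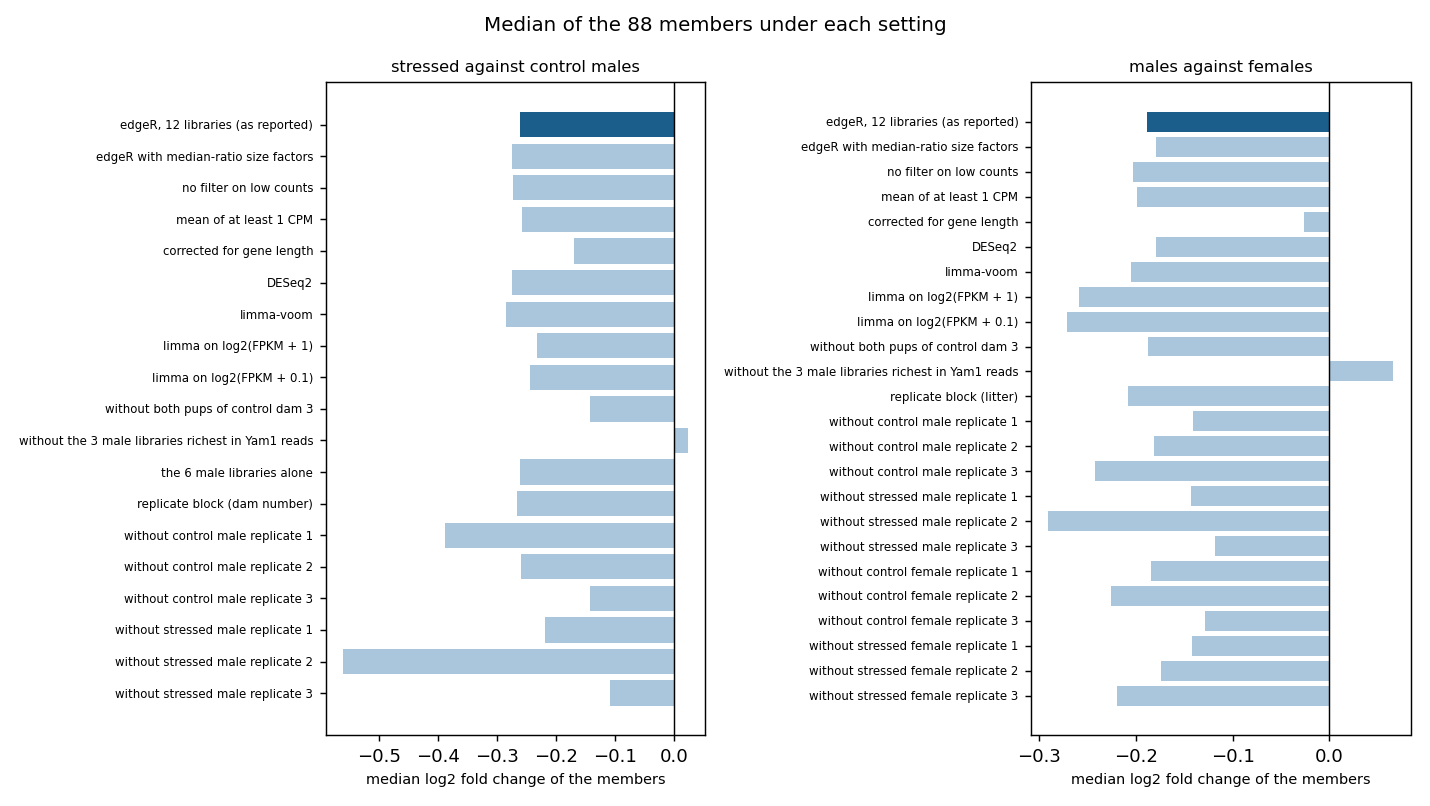
Median log2 fold change of the 88 members (bars from 0) for stressed against control males and for males against females, as reported (dark) and under each other setting (light). The bars turn to the other side of 0 only without the 3 Yam1-rich males (0.02 and 0.07), are shorter with the length correction (-0.17 and -0.03) and reach furthest without stressed male 2 (-0.56 and -0.29).

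Other genes of mitochondrial energy metabolism were counted beside the members, and by edgeR 0 genes of these lists passed the threshold in any of the 5 comparisons. In stressed against control males the 12 tested subunits encoded by mitochondrial DNA were all lower, with a median of -0.95. Without the 3 Yam1-rich males, which leaves 1 stressed and 2 control males, all 12 were lower (-0.36), where the median of the nuclear members was 0.02. That difference was not tested. Mitochondrial ribosomal proteins had 68 of 76 lower (median -0.15), led by Mrpl28 and Mrpl12. Of 10 subunits and carriers outside the rule 10 were lower (-0.22), led by cytochrome c (Cycs) and cytochrome c1 (Cyc1). Assembly factors outside the rule had 29 of 38 lower (-0.13), led by Cox19 and Sdhaf2. The tricarboxylic acid cycle and pyruvate dehydrogenase had 14 of 18 lower (-0.13), led by Mdh2 and Sucla2, and carriers, porins and import 14 of 15 (-0.10), led by Vdac1 and Slc25a3. The 17 regulators of mitochondrial biogenesis and mitochondrial DNA, among them the factors whose letters were searched in the promoters, had 8 lower and 9 higher (0.02), with Esrra and Gabpb1 at the smallest p. At an unadjusted p under 0.05 stood 12 of the 12 mitochondrially encoded, 2 of the ribosomal, 1 of the assembly and 0 genes of the other lists, where 6.38% of all genes did. The ribosomal and assembly shares were thus below that of all genes.

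In females the same lists stood closer to 0, from -0.05 for the tricarboxylic acid cycle to 0.09 for the mitochondrially encoded subunits. Over the libraries the mitochondrial ribosomal proteins had median deviations of -0.17, -0.22 and -0.34 in control male 1, stressed male 1 and stressed male 3. The mitochondrially encoded subunits stood at 0.57, -0.57 and -1.6 in the same libraries, so that control male 1 was low in nuclear members and high in mitochondrial transcripts. Cell type markers moved in some of these libraries too. The 7 smooth muscle markers had a median deviation of 0.77 in control male 1 and -0.65 in control male 2, and the 5 epithelial markers -0.55 in control male 1 and 0.54 in control male 3. Summed, the epithelial markers ran from 3663 to 6477 CPM in control and 4379 to 4722 CPM in stressed males, and from 4469 to 5405 CPM in control and 4492 to 4702 CPM in stressed females. The part of tissue composition in the members' values was not tested.

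The authors' deposited table gives a negative log2 fold change in stressed against control males for 84 of 88 members, with a median of -0.21. For females the authors' deposited table gave 27 of 88 negative and a median of 0.03, and for both sexes together 75 of 88 and -0.08. The authors' deposited table holds 0 members and 0 genes with an adjusted p under 0.05 in these 3 comparisons.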

How the data were processed

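RNA of 12 ileum libraries (4 groups of 3) was analysed from the deposited tables. The deposited count table holds raw counts of reads per gene, and the deposited FPKM table holds FPKM, which equalled count over gene length and library total within 1e-06. Another deposited table gives the authors' own log2 fold changes with adjusted p-values, per the file headers. Tools and builds in the submitters' processing notes are STAR 2.5, TopHat, HTSeq 0.6.1, edgeR 3.16.5, DESeq2, mm10 and GRCm38. The sources used here do not give the annotation release.

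The counts were fitted with edgeR 4.0.16 under R 4.3.3 (quasi-likelihood test, TMM, filterByExpr, 1 fit of 4 groups, 16102 genes; littermates summed for dams, 16749 genes), adjusted over all genes by Benjamini and Hochberg at 0.05. The threshold in the text is that adjusted p. Negative log2 fold changes mean less RNA in stressed offspring, or in males. Deviations are log2 CPM (prior count 2) minus the gene's mean. Tests were tested on simulated data.

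The members and lists were chosen with earlier results of these data known. Named genes were those past the threshold, the 6 of smallest p in each comparison, the 2 highest and the lowest FPKM of each role, Sdha to Sdhd, tissue isoforms, and the 5 largest and 3 smallest SDs. The values of 1 member are not reported here. Values from some other members were added to describe single libraries. Alternatives were DESeq2 1.42.0, limma-voom (limma 3.58.1), other size factors and filters, limma on log2(FPKM + 1) or log2(FPKM + 0.1), a length correction (loess, span 0.5), single-sex fits, blocks, and libraries left out. By the labels a dam number marks a litter, so littermates pair between sexes, while a stressed and a control dam share only a number. Across genes, deviations of littermates correlated between -0.48 and 0.59.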

Additional observations from a re-analysis of the deposited data

How the results depend on the processing

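Over all alternatives run, the members past the threshold stayed at 0 in every comparison, except for males against females without stressed male 2 (16 members). Leaving out 1 library at a time gave 0 to 1 genes past the threshold for stress in males, and 8 to 1384 genes and 0 to 16 members for males against females, the upper value in each case without stressed male 2. For males against females the number of genes was 18 with DESeq2 and 5 without the 3 Yam1-rich males. Medians of the members moved by less than the spread between replicates (SD 0.34 in males, 0.23 in females, 0.22 over dams, 0.29 for the difference and between sexes). That spread is the SD of single libraries, or dams, within groups, and not the error of a comparison. It was wider than the median itself in all comparisons but the difference. This does not set the difference apart, since the error of each comparison depends on the groups it combines. A median can change sign: without the 3 Yam1-rich males it turned to 0.02 in males and 0.07 between sexes. With a single library or dam left out the medians ran from -0.56 to -0.11 in males, -0.08 to 0.20 in females, -0.57 to -0.15 for the difference, -0.18 to 0.03 over dams and -0.29 to -0.12 between sexes. For 35 results, each a named member in 1 comparison, direction was followed over 695 alternatives. Without stressed male 2, 5 of these results passed the threshold between sexes (Atp5k, Ndufa3, Cox6b2, Cox6c and Ndufa7). They are among the 16 members above. Direction turned in 11 alternatives, none of them past the threshold. Without the 3 Yam1-rich males these were Ndufa4l2 (0.0088), Cox4i1 (0.13) and Uqcrq (0.11) in males, Ndufb7 over dams (0.048) and Atp5k between sexes (0.030). Without both pups of control dam 3 they were Sdha (0.17) and Atp5b (0.12) in males and Ndufaf2 in females (0.011). The other 3 came from leaving out the control pup of that dam alone, where the range over single libraries was -0.36 to 0.17 for Sdha, -0.50 to 0.12 for Atp5b and -0.24 to 0.015 for Ndufaf2. The cause was not tested. The replicate block changed no call of a member: medians were -0.27 in males and 0.04 in females with the dam number as block, and -0.37 for the difference and -0.21 between sexes with the litter as block (6 genes past the threshold). A rule minimum of 0.1 or 5 CPM gave 90 or 85 members. The lowest count of a member in a library was 21, and counting error was not separated from the spread between libraries.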
